A study of Mus musculus with 8 samples.

Results

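The 40 genes described here encode the machinery that copies DNA and the regulators that switch it on. They are the proteins that license replication origins, the replicative helicase, the sliding clamp and its loader, DNA polymerases and primase, and the enzymes that join and mature new strands. They also include the enzymes that supply deoxynucleotides, E2F transcription factors with the E cyclins, and the factors that rebuild chromatin behind the fork. The genes were taken by name from a list of replication genes, which was drawn up with earlier results of these data known, and all 40 were found among the 41444 genes of the table. All 40 had a mean expression high enough to be tested, as had 11851 genes in all. Cells were macrophages grown from the bone marrow of wild-type C57BL/6 mice in medium with M-CSF, the growth factor that keeps macrophages alive and dividing in culture (100 ng/mL). They received vehicle or SLIT2 (6 nM, 16 hours), a secreted ligand of ROBO receptors best known from axon guidance, and each group held 4 RNA-seq libraries numbered 1 to 4. The labels do not say whether replicates are separate cultures or animals, so p-values measure the spread between these libraries. That spread holds a difference between pairs of replicates, described below, and within a pair it may be technical.

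As background, a cell commits to copying its genome when cyclin-dependent kinases release E2F factors from the retinoblastoma family of pocket proteins, and E2F then raises the genes of the replication machinery together. Origins are licensed before S phase, when ORC, CDC6 and CDT1 load the MCM2-7 helicase, and are fired when CDC45 and the GINS complex join it. Macrophages in M-CSF keep cycling, so these transcripts are expressed in such cultures. In a bulk sample, fewer cells in S phase and less RNA of these genes per cell cannot be told apart.

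All values are the authors' regularized-log (rlog) values on a log2 scale, and a difference is the mean of the SLIT2 libraries minus the mean of the vehicle libraries on that scale. The rlog transform pulls values towards each gene's mean, so differences of low genes are understated, and levels of different genes are not compared, since the values are not per length. No read counts were available for this report, so depth is unknown. In each group the libraries fell into a pair of replicates 1 and 2 and a pair of replicates 3 and 4. Xist, the RNA of the inactive X chromosome, lay between 7.47 and 7.65 in the first and between 12.69 and 12.79 in the second, and the Y-linked Ddx3y between 10.75 and 10.83 and between 5.90 and 6.45. (Xist and Ddx3y were picked with their values known.) Same-numbered libraries of the groups deviated together, as did the other libraries of the same replicate pair, and a second test with the replicate number as a block is given where it changes a call. Both tests are limma's, with p-values adjusted by Benjamini-Hochberg over all 11851 genes and a threshold of 0.05. The defining macrophage genes Csf1r, Adgre1 (listed as Emr1) and Lyz2 were high in every library, with Csf1r between 15.33 and 16.18. The granule genes Mpo and Elane of myeloid progenitors were at -2.14, the lowest value in the table, in every library.

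What many of these genes share outside the list's own rule can be read in their promoters. E2F binds short words of the type shown in capitals below. Of the 40 genes, 35 had a promoter window in RefSeq (GRCm38.p6), which runs from 250 bases before to 50 bases after an annotated start. The spellings TTTCCCGC, TTTGGCGC, TTTCGCGC and TTTGCCGC were searched on both strands, and words may overlap. At least 1 was present for 14 of the 35 genes (40%), against 4.79% of the 9074 tested genes with a window and 2.60% of all 27025 genes with one. Among the other replication-pathway genes described further below, 15 of 52 with a window held 1 (28.8%), so the words are not particular to these 40. The stretches below are from members that differed with SLIT2 (Mcm6, E2f7, and Uhrf1 with the block only). Others are from members of the same pathway that passed neither test (Mcm5, Cdc6, Pola1). Of these, Mcm5 and Cdc6 did pass a further limma fit with the replicate pair as the block (adjusted p = 0.0218 and 0.0303). Each stretch is printed 5′ to 3′ on the gene's strand with 20 bases on either side of its matches. The E2F words are in capitals, and all lie before the RefSeq start of their window.
Mcm6: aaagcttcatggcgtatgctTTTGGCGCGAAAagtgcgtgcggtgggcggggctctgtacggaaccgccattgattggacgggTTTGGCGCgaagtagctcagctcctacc
E2f7: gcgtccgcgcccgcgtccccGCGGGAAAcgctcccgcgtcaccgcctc
Uhrf1: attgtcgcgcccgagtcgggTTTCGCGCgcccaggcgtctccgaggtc
Mcm5: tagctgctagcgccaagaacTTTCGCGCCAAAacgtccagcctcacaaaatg
Cdc6: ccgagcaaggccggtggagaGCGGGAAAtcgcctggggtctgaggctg
Pola1: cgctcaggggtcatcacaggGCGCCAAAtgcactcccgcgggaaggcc

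In GRCm38 these stretches lie at chr1:128359725-128359835 on the minus strand (Mcm6), chr10:110745221-110745268 on the plus strand (E2f7) and chr17:56304108-56304155 on the plus strand (Uhrf1). Those of the others lie at chr8:75109336-75109387 on the plus strand (Mcm5), chr11:98907993-98908040 on the plus strand (Cdc6) and chrX:93632266-93632313 on the minus strand (Pola1). None of the 6 overlaps an exon of GENCODE M21. Those of Cdc6 and Uhrf1 lie inside the gene spans of that annotation, which begin further upstream, at 98907801 and 56303321. Mcm6 and Mcm5 each hold a pair of overlapping words on opposite strands, written as 1 run of capitals, and Mcm6 has a further word closer to the start. By response the counts were small, and no difference between them was tested. The words were present for 3 of the 5 members that passed without a block, for 8 of the 18 members with a window that passed the replicate-block test described below and for 6 of the 17 that did not. The mitosis genes fixed for comparison had another word in common. TTTGAA, the core of the cell cycle homology region, was present on either strand for 23 of 30 mitosis genes with a window (76.7%), for 5 of 35 members (14.3%) and for 14.6% of the tested genes. Conversely, 1 of the 30 mitosis genes held an E2F word. These are matches of letters and not measured binding sites.

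Most of the 40 genes were lower with SLIT2 by a small amount. Their median difference was -0.27, against 0.00 over all 11851 genes, and the differences ran from -0.75 (Ccne2) to 0.16 (Rfc5). A negative difference was found for 34 of the 40 (85%), against 49.0% of all genes. Without a block, 5 members fell and none rose: Cdt1, Mcm6, Pcna, Rpa2 and E2f7. That is 12.5% of the members lower, against 6.58% of all genes lower and 6.76% higher (13.3% in either direction), and at an unadjusted p under 0.05 limma gave 16 members lower and 0 higher, against 13.0% of all genes lower (1538, with 1578 higher). With the replicate block 20 members fell (50%) and none rose, against 16.4% of all genes lower and 16.6% higher (33.0% in either direction). All 20 were lower in each of the 4 same-numbered pairs. That test compares these same pairs, so this is no separate support. The other 20 passed neither test. With each pair of duplicates averaged and the replicate pair as a block, 1 member passed, Rrm2, against 2.66% of all genes lower. In 8 members no SLIT2 library reached the lowest vehicle library (20.0%, against 9.99% of all genes), and in 0 members was the order the other way (10.6% of all genes).

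**Figure D1:**
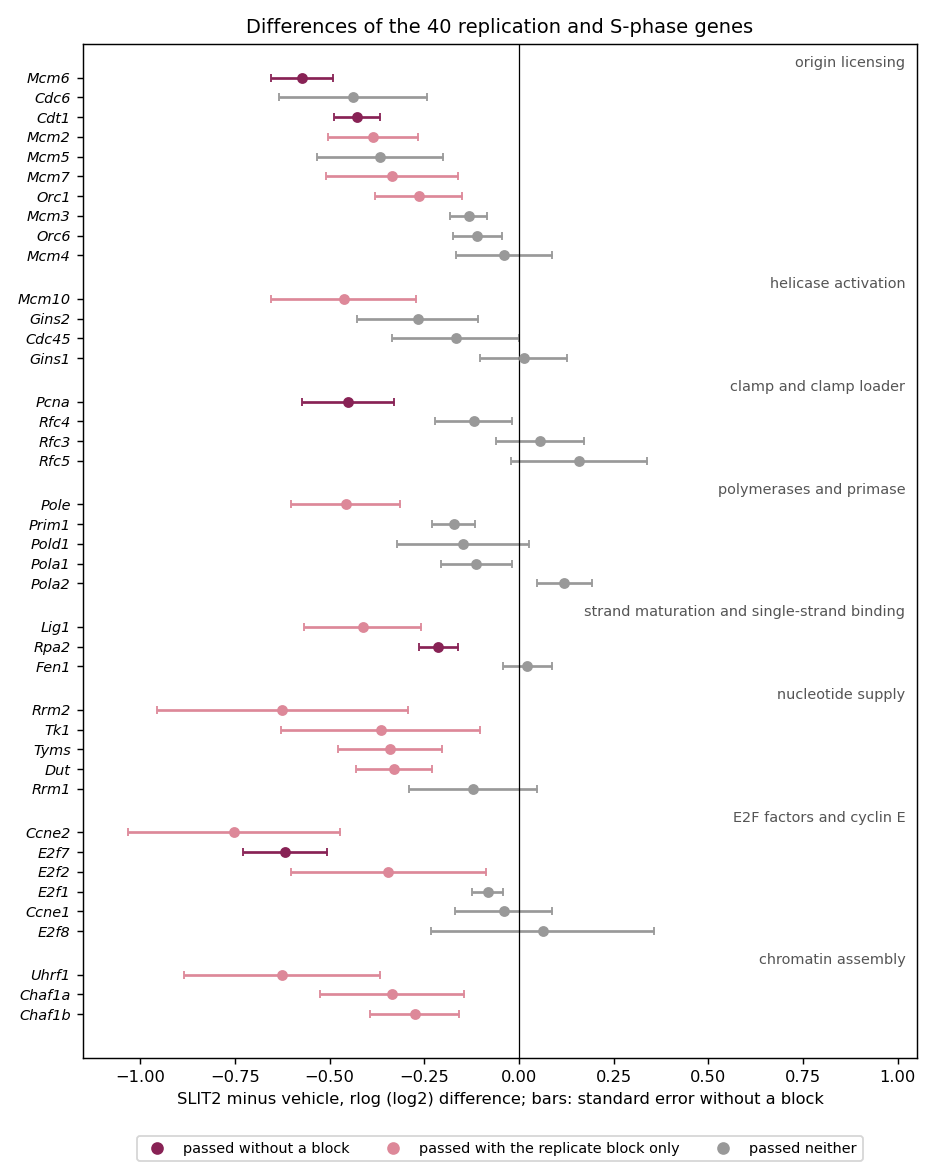
Each point is the SLIT2 minus vehicle difference of 1 gene in rlog units (log2), with its standard error without a block, for the 40 genes grouped by step and ordered by size within a step. The 5 genes that passed without a block and the 15 that passed with the replicate block only all lie left of 0, and the 6 points right of 0 passed neither test.

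All 10 genes of origin licensing had a negative difference, with a median of -0.35, and 2 fell without a block and 5 with it. Cdt1 (ENSMUSG00000006585, chromosome 8, 122568015 to 122573554) encodes the factor that brings the MCM helicase to the origin and is destroyed once S phase begins. Its values were 9.78, 9.62, 9.70 and 9.79 in vehicle replicates 1 to 4 and 9.37, 9.35, 9.22 and 9.24 in SLIT2 replicates 1 to 4. The groups did not overlap and were about as tight as each other, so Cdt1 fell from 9.72 ± 0.079 to 9.30 ± 0.076 (SD, n = 4 each), a difference of -0.43 (SE 0.061, limma adjusted p = 0.00287). Mcm6, a subunit of the helicase ring (ENSMUSG00000026355, chromosome 1, 128331590 to 128359664), stood at 11.20, 11.18, 11.06 and 11.01 with vehicle and at 10.41, 10.43, 10.59 and 10.73 with SLIT2. Again no SLIT2 library reached a vehicle library, and the gap was wider in replicates 1 and 2. Mcm6 fell by 0.57 (SE 0.082, limma adjusted p = 0.00289). Its level with SLIT2 was 67.2% of that with vehicle on a linear scale. The calls of Cdt1 and Mcm6 stood with any 1 library left out.

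The subunits of the MCM2-7 ring assemble in equal numbers, and their differences ran from -0.57 (Mcm6) to -0.04 (Mcm4). Mcm2 came next to Mcm6, at 9.76, 9.72, 9.31 and 9.36 with vehicle and 9.25, 9.22, 9.0 and 9.14 with SLIT2. These groups did not overlap either, but vehicle replicates 1 and 2 stood well above 3 and 4, and the difference of -0.39 (SE 0.12) passed with the block only (adjusted p = 0.0717 without and 0.00505 with it). Mcm7 differed by -0.34 and passed with the block only (adjusted p = 0.278 and 0.0200), and Mcm5 differed by -0.37 and passed neither (0.207 and 0.0603). Mcm3 and Mcm4 had the smallest differences of the ring. Mcm3 differed by -0.13 (SE 0.049) and Mcm4 by -0.04 (SE 0.13), with adjusted p of 0.130 and 0.895 without the block and of 0.0587 and 0.592 with it. Differences between subunits were not tested. Among the proteins that recognise the origin or load the ring, Orc1, the ORC subunit whose amount follows the cell cycle, differed by -0.27 (adjusted p = 0.192, and 0.0492 with the block). Orc6, the smallest ORC subunit, differed by -0.11 (0.337 and 0.253). Cdc6, the loader ATPase, differed by -0.44 and passed neither test (0.202 and 0.0768). Its vehicle values spread from 6.34 to 7.24, and it passed unblocked without vehicle replicate 3, the lowest of them (adjusted p = 0.0398). With any other 1 library left out it did not pass (adjusted p from 0.226 to 0.391).

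Among the genes of helicase activation none passed without a block, and Mcm10 passed with it. MCM10, which helps the loaded helicase to start unwinding, had values of 7.35, 7.21, 6.76 and 6.47 with vehicle and 6.65, 6.54, 6.39 and 6.36 with SLIT2. The overlap came from vehicle replicate 4, which lay below SLIT2 replicates 1 and 2. The difference was -0.46 (SE 0.19, adjusted p = 0.168, and 0.0238 with the block). Without vehicle replicate 4 it passed unblocked (adjusted p = 0.0490), and with any other 1 library left out it did not (adjusted p from 0.183 to 0.335). Cdc45 and Gins2, partners of the MCM ring in the active helicase, differed by -0.17 and -0.27 and passed neither test (adjusted p with the block 0.111 and 0.0610). Gins1, of the same complex as Gins2, differed by 0.01 (SE 0.11).

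In the clamp and clamp loader group Pcna fell and the loader genes passed neither test. PCNA is the sliding clamp that tethers polymerases to DNA, and RFC3, RFC4 and RFC5 are small subunits of the complex that opens it. Pcna (ENSMUSG00000027342, chromosome 2, 132249162 to 132253314) was at 13.61, 13.61, 13.75 and 13.79 with vehicle and at 13.06, 12.99, 13.36 and 13.54 with SLIT2. The groups did not overlap, but SLIT2 replicate 4 came near the lowest vehicle libraries, so that the SD was 0.094 with vehicle and 0.26 with SLIT2. Pcna fell by 0.45 (SE 0.12, adjusted p = 0.0438, and 0.00280 with the block). That unblocked call was lost without any 1 library except SLIT2 replicate 4 (adjusted p from 0.0643 to 0.107). Rfc3, Rfc4 and Rfc5 differed by 0.06, -0.12 and 0.16 and passed neither test, the smallest of their adjusted p being 0.172, that of Rfc5 with the block. The values of Rfc5 overlapped widely, from 8.59 to 9.14 with vehicle and from 8.61 to 9.32 with SLIT2.

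Of the 5 polymerase and primase genes, Pole passed with the block. It encodes the catalytic subunit of polymerase epsilon, which copies the leading strand, and stood at 7.81, 7.84, 7.41 and 7.28 with vehicle and at 7.31, 7.07, 6.98 and 7.15 with SLIT2. Only SLIT2 replicate 1 reached into the vehicle range. The difference was -0.46 (SE 0.14, adjusted p = 0.0779, and 0.0200 with the block). Prim1, the catalytic subunit of primase, had no overlap between groups, at 7.93 to 7.99 with vehicle and 7.73 to 7.86 with SLIT2. Its difference of -0.17 missed the threshold in both tests (adjusted p = 0.0868 and 0.0551). Pola1 and Pola2, of polymerase alpha, the enzyme that extends the primer, differed in opposite directions, by -0.11 and 0.12, and passed neither test. Pold1, the catalytic subunit of polymerase delta, differed by -0.15 (SE 0.18), with SLIT2 values spread from 8.20 to 9.08.

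Of the genes that finish and protect the new strands, Rpa2 fell, Lig1 passed with the block and Fen1 passed neither test. Rpa2, a subunit of the protein that coats single-stranded DNA (ENSMUSG00000028884, chromosome 4, 132768332 to 132778752), stood at 9.04, 9.10, 9.03 and 8.99 with vehicle and at 8.88, 8.76, 8.86 and 8.81 with SLIT2. Values within each group lay close together and the groups did not overlap, so a small fall of 0.21 (SE 0.053) passed (adjusted p = 0.0335, and 0.0211 with the block). The unblocked call was lost with any 1 library left out (adjusted p from 0.0515 to 0.0932). Lig1, the ligase that seals Okazaki fragments, differed by -0.41 and passed with the block (adjusted p = 0.132 and 0.00243). Its values were 9.76, 9.95, 9.36 and 9.39 with vehicle and 9.26, 9.45, 9.11 and 8.99 with SLIT2, lower in every same-numbered pair while the groups overlapped. Fen1, the nuclease that trims the flap before ligation, differed by 0.02 (SE 0.066, adjusted p = 0.885, and 0.758 with the block).

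**Figure D2:**
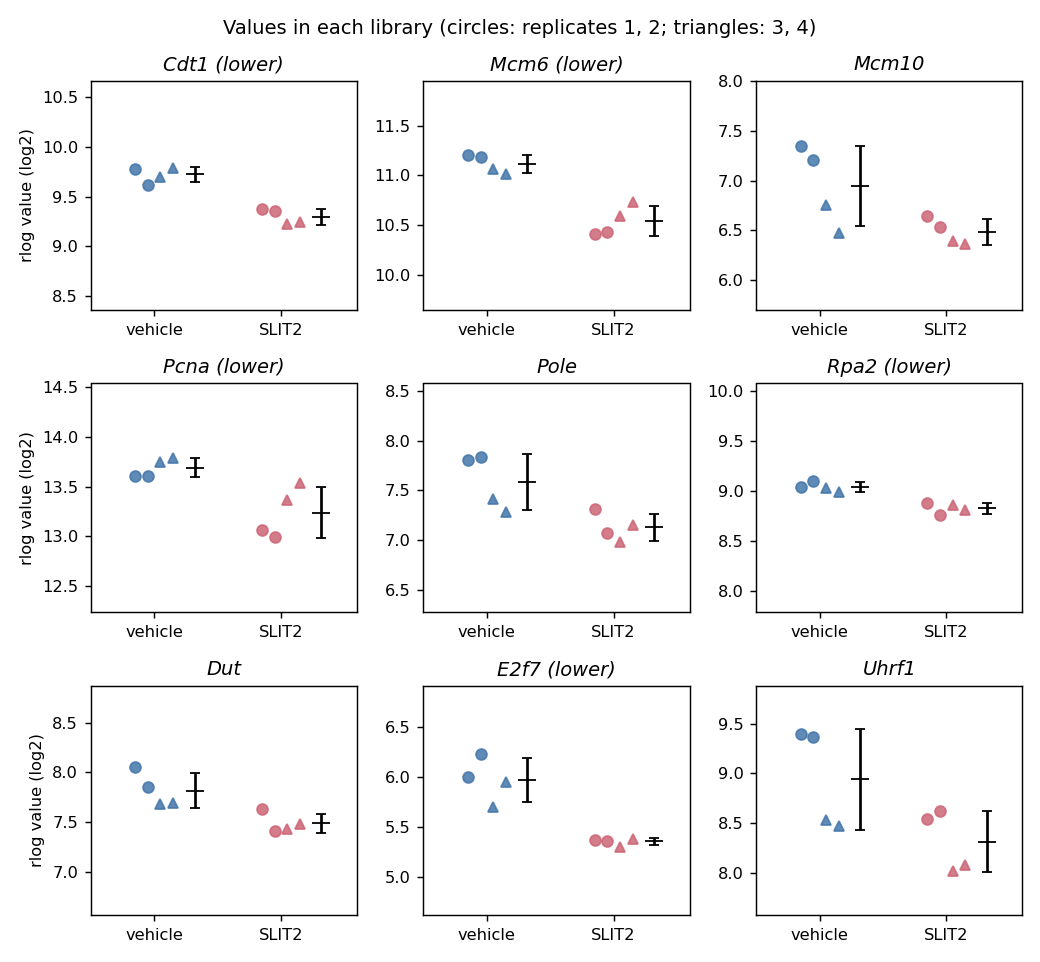
Each panel shows the rlog values (log2, the same span in every panel) of 1 gene in the 4 vehicle and 4 SLIT2 libraries, with circles for replicates 1 and 2, triangles for replicates 3 and 4, and the mean with its SD to the right of each group. The genes are those called in each step (up to 2), or the top-ranked gene of a step without a call, and Cdt1, Mcm6, E2f7, Rpa2 and Pcna, marked as lower, have no overlap between groups.

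All 5 genes of nucleotide supply had a negative difference, and 4 fell with the block. Dut, which removes dUTP so that uracil is not built into DNA, stood at 8.05, 7.85, 7.68 and 7.69 with vehicle and at 7.63, 7.41, 7.43 and 7.48 with SLIT2. The groups did not overlap, and the difference was -0.33 (SE 0.099, adjusted p = 0.0668, and 0.0118 with the block). Rrm2, the subunit that limits ribonucleotide reductase, stood at 8.95, 8.97, 7.83 and 8.09 with vehicle and at 8.28, 8.24, 7.34 and 7.48 with SLIT2. In Rrm2 the replicate pairs differed by more than the treatment groups, and SLIT2 replicates 1 and 2 lay above vehicle replicates 3 and 4. Its difference of -0.625 had an SE of 0.33 without a block (adjusted p = 0.284) and passed with it (adjusted p = 6.74e-04). It was also the member that passed with averaged duplicates (adjusted p = 0.0469). Rrm1, the partner subunit, differed by -0.12 and passed neither test (0.726 and 0.0875). Tyms, which makes thymidylate, and Tk1, the salvage kinase for thymidine, differed by -0.34 and -0.37 and passed with the block (adjusted p = 0.0429 and 0.0418).

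The E2F and cyclin E genes held both the member with the most negative difference and some that hardly differed. E2f7 (ENSMUSG00000020185, chromosome 10, 110745439 to 110787384) encodes an atypical E2F that represses E2F target genes. Its values were 6.00, 6.23, 5.70 and 5.95 with vehicle and 5.37, 5.36, 5.30 and 5.38 with SLIT2. The vehicle libraries varied and the SLIT2 libraries did not overlap them and were nearly equal. E2f7 fell by 0.62 (SE 0.11, adjusted p = 0.00834, and 0.00395 with the block), to 65.2% of the vehicle level on a linear scale, and the call stood with any 1 library left out. E2f8, the other atypical repressor, differed by 0.06 (SE 0.29) and passed neither test. It was at 8.67, 8.47, 7.65 and 7.63 with vehicle and at 8.58, 8.45, 7.88 and 7.76 with SLIT2, so the libraries separated by replicate pair and not by treatment. The activators E2f1 and E2f2 differed by -0.08 and -0.345, and E2f2 passed with the block (adjusted p = 0.463 and 0.00993).

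Of the E cyclins, which drive CDK2 at the entry to S phase, Ccne2 passed with the block and Ccne1 passed neither test. Ccne2 was at 7.85, 7.64, 6.74 and 6.90 with vehicle and at 6.82, 6.74, 6.07 and 6.49 with SLIT2. It was lower by at least 0.41 in each same-numbered pair. The difference was -0.75 (SE 0.28, adjusted p = 0.128, and 0.00365 with the block). Ccne1 was at 7.06, 6.95, 6.70 and 6.64 with vehicle and at 7.03, 6.85, 6.68 and 6.63 with SLIT2, and differed by -0.04 (SE 0.13, adjusted p = 0.895, and 0.647 with the block). Whether the E cyclins, or E2f7 and E2f8, differ from each other in response was not tested.

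The 3 chromatin genes all passed with the block and none without it. Uhrf1 recognises hemimethylated DNA behind the fork and recruits the maintenance methyltransferase, and was at 9.40, 9.36, 8.53 and 8.47 with vehicle and at 8.54, 8.62, 8.02 and 8.08 with SLIT2. Each SLIT2 pair lay below its vehicle pair, while SLIT2 replicates 1 and 2 were level with vehicle replicates 3 and 4. The difference was -0.625 (SE 0.26, adjusted p = 0.169, and 0.00281 with the block). Chaf1a and Chaf1b, subunits of the histone chaperone CAF-1 that deposits histones on new DNA, differed by -0.34 and -0.28 (adjusted p with the block 0.0301 and 0.0399).

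The library order was similar across many of the genes. A vehicle library held the highest value in 35 of the 40 genes, which was replicate 1 or 2 in 30. A SLIT2 library held the lowest value in 34, which was replicate 3 or 4 in 26 (a tie was given to the lower replicate number). Averaged over the 40 genes, each taken relative to its own mean, vehicle replicates 1 to 4 stood at 0.32, 0.29, -0.06 and -0.03 and SLIT2 replicates 1 to 4 at -0.02, -0.07, -0.22 and -0.21. The SLIT2 libraries of replicates 1 and 2 thus lay at about the height of the vehicle libraries of replicates 3 and 4.

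**Figure D3:**
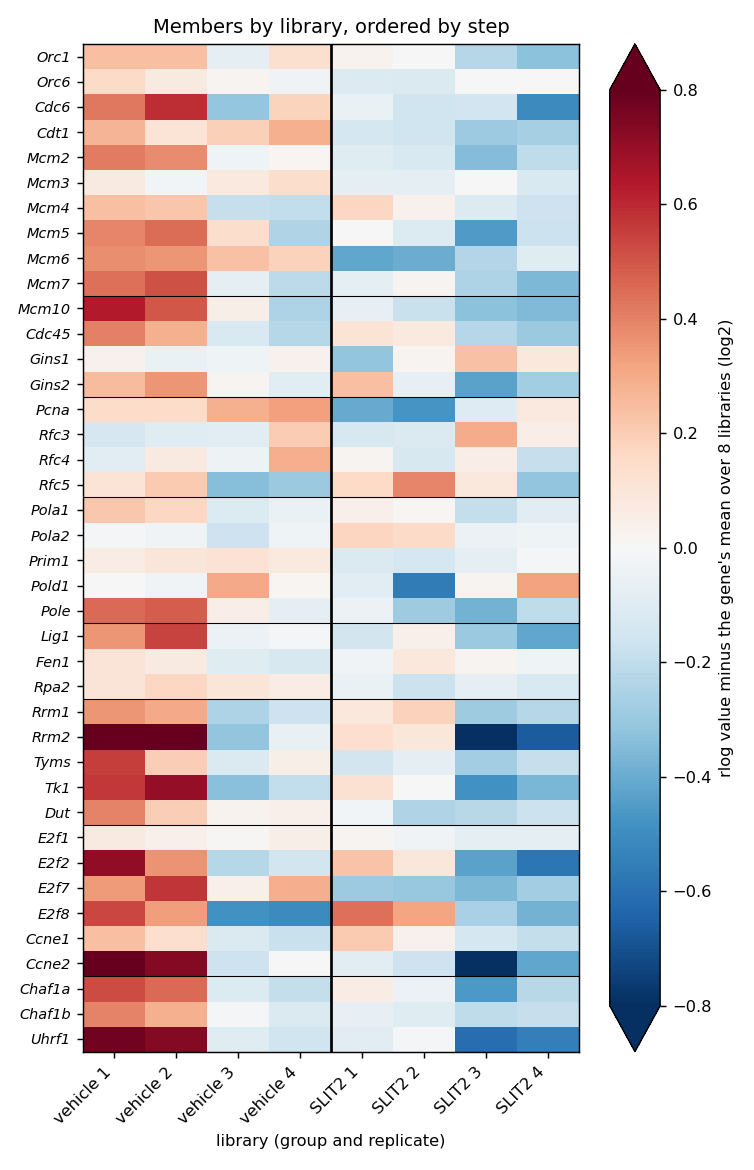
Colour gives each gene's rlog value minus its mean over the 8 libraries (log2), with genes in rows ordered by step and libraries in columns, vehicle left of the line and SLIT2 right of it. Vehicle replicates 1 and 2 are the highest columns for most genes and SLIT2 replicates 3 and 4 the lowest, while Pcna, Mcm6 and E2f8 show other orders.

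Both divisions of the libraries took large parts of the variation. Over the 40 genes treatment took 37.3% of the sum of squares, the division of replicates 1 and 2 from 3 and 4 took 50.4%, the interaction 4.63% and the scatter of duplicates 7.67%. Over all genes tested the parts were 37.3%, 46.7%, 5.29% and 10.7%. By step these parts varied. In origin licensing treatment took 51.5% and the replicate pairs 32.2%, while in nucleotide supply they took 29.3% and 63.3%. Treatment took 91.0% for Cdt1, 87.6% for Mcm6, 85.9% for Rpa2, 84.0% for E2f7 and 83.8% for Prim1. The replicate pairs took 94.9% for E2f8, 89.2% for Rrm1 and 87.3% for Mcm4. Of the 40 genes, 29 were lower in replicates 3 and 4 in both groups (42.1% of all genes were), 6 were higher in both and 5 were mixed. Rrm2 was lower there by 1.00 with vehicle and by 0.85 with SLIT2, and Pcna was higher by 0.16 and 0.43. The replicate pairs were recognised from these data, so these values are given without a test.

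**Figure D4:**
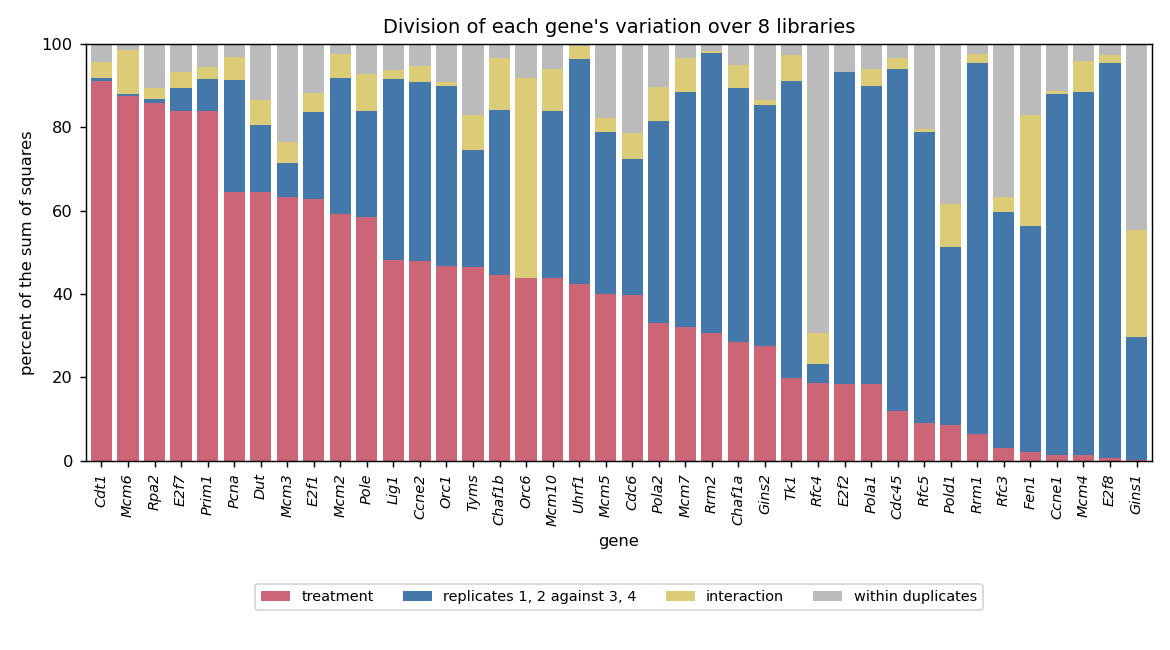
Stacked bars divide each gene's sum of squares over the 8 libraries (in percent) between treatment, replicates 1 and 2 against 3 and 4, their interaction and the spread within duplicates, with genes ordered by the part of treatment. The bars of Cdt1, Mcm6, Rpa2, E2f7 and Prim1 are mostly treatment, and those of E2f8, Rrm1, Mcm4 and Ccne1 mostly the replicate pairs.

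Within each replicate pair the direction was mostly the same and the size was not. In replicates 1 and 2, 38 of the 40 genes were lower with SLIT2, with a median of -0.33, and in replicates 3 and 4, 31 were lower, with a median of -0.18. Over all genes the medians were 0.00 and 0.005. The difference was higher (a smaller fall or a rise) in replicates 3 and 4 for 33 of the 40 genes, against 49.2% of all genes. Fits within a pair, which rest on the spread of duplicates, called 21 of 40 members in replicates 1 and 2, each of them lower, against 16.5% of all genes lower there (3962 genes called in either direction). In replicates 3 and 4 they called 8 of 40, each lower, against 11.9% of all genes lower (2880 in either direction). The difference between the pairs was itself tested with limma's interaction term. This test too rests on the spread of duplicates, and the pairs were recognised from these data. In it 1 of 40 members passed, against 4.40% of all genes (2.12% with the higher effect in replicates 3 and 4, as here). That was Mcm6, which was lower by 0.77 in replicates 1 and 2 and by 0.38 in replicates 3 and 4 (interaction 0.395, SE 0.0685, adjusted p = 0.0203). For Uhrf1 the differences of -0.80 and -0.45 did not pass this test (adjusted p = 0.0727). For Cdt1 they were -0.34 and -0.515, and that contrast did not pass either (adjusted p = 0.332).

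**Figure D5:**
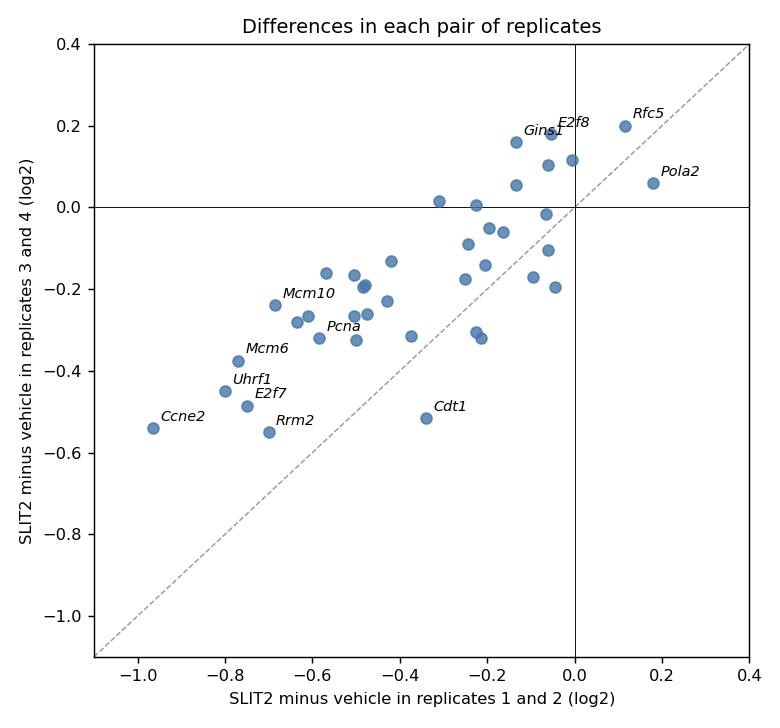
Each point is 1 of the 40 genes, with its SLIT2 minus vehicle difference (log2) in replicates 1 and 2 on the horizontal axis and in replicates 3 and 4 on the vertical axis, and the dashed line marks equal differences. Most points lie below 0 on both axes, 33 lie above the dashed line, and Cdt1 lies below it.

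Other genes of the replication pathway, from a list of 66, gave calls in both directions. Of the 64 tested, 2 fell and 2 rose without a block (3.12% each, against 6.58% and 6.76% of all genes). With the block 14 fell and 6 rose (21.9% and 9.38%, against 16.4% and 16.6% of all genes). The median difference was -0.04, with 39 below 0 (60.9%, against 49.0% of all genes). Dna2, a nuclease and helicase that processes long flaps, fell by 0.58 (SE 0.14, adjusted p = 0.0301), and Wee1, the kinase that holds back CDKs, by 0.61 (SE 0.074, adjusted p = 0.00122). Wdhd1, which couples polymerase alpha to the helicase, rose by 0.39 (SE 0.10, adjusted p = 0.0384), and E2f5, an E2F that acts mainly as a repressor, by 0.36 (SE 0.081, adjusted p = 0.0228). The other ORC genes of the list passed neither test, with differences of -0.03 for Orc2 and Orc3, 0.14 for Orc4 and 0.03 for Orc5. Among genes that passed with the block only, Dnmt1, the maintenance methyltransferase that UHRF1 recruits, differed by -0.34 (adjusted p = 0.296, and 9.50e-04 with the block). Ccna2, the cyclin of S phase, differed by -0.61 (0.409 and 0.00961), Rpa1, the partner of Rpa2, by -0.21 (0.207 and 0.00277) and Gmnn, the inhibitor of CDT1, by -0.22 (0.0960 and 0.0106). Dck, a kinase that salvages deoxynucleosides, passed in the other direction (0.58, adjusted p = 0.107, and 0.00971 with the block), as did Donson, a factor of helicase assembly (0.40, 0.115 and 0.00340).

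Lists of genes that act before and after S phase were counted in the same way. Over all genes 6.58% fell and 6.76% rose without a block, and 16.4% and 16.6% with it. Of 15 tested D-type cyclin, CDK inhibitor and Myc-family genes, 3 fell and 3 rose without a block (20.0% each). With the block 4 of the 15 fell and 5 rose (26.7% and 33.3%). Those that fell without it were Ccnd1 (-1.24), Myc (-0.865) and Cdk6 (-0.735), and those that rose were Ccnd3 (0.565), Mxd1 (0.53) and Max (0.20). The 3 further calls with the block were CDK inhibitors, in both directions. Cdkn1c differed by -1.20 (adjusted p = 0.168, and 0.0145 with the block), Cdkn1a by 0.24 (0.584 and 0.00901) and Cdkn2d by 0.955 (0.339 and 0.0476). Of 35 mitosis genes, 1 fell without a block (Kif23, 2.86% of the list). With the block 16 fell (45.7%) and 1 rose (2.86%). A negative difference was found for 29 of the 35 (82.9%), against 85% of the 40 replication genes and 49.0% of all genes. The median of the mitosis genes was -0.245, close to that of the 40 replication genes. Mitosis genes were lower in replicates 3 and 4 by a median of 0.78 with vehicle and 0.57 with SLIT2, and the replication genes by 0.37 and 0.19. The difference between the lists was not tested.

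Marker genes of other cells were checked beside these results. Of 9 macrophage markers 2 rose and 1 fell without a block and 3 rose and 2 fell with it. Mrc1 (1.18) and Fcgr1 (1.165) rose and Cd68 (-0.245) fell without a block. The summed level of the 9 on the log2 scale, of which Lyz2 made up most, ran from 19.09 to 19.61 with vehicle and from 19.14 to 19.64 with SLIT2. The 8 progenitor markers, whose cells would also divide, summed to 5.95 to 6.29 with vehicle and 5.77 to 6.00 with SLIT2. Of the 2 that were tested, Kit differed by -0.505 (limma adjusted p = 0.0869, and 0.0382 with the block) and Cd34 by 0.0975 (0.603 and 0.409). Prtn3 and Ctsg were listed at 0 in every library. The 8 neutrophil markers summed to 11.28 to 11.48 and 11.88 to 12.24, of which Csf3r, also expressed by macrophages, made up most, and Ly6g was listed at 0. Of 6 monocyte markers, 4 of them tested, 2 fell without a block, Nr4a1 (-1.02, limma adjusted p = 0.0114) and Cd300e (-0.7425, 0.00859). With the block 2 others rose. These were Ccr2, which differed by 0.8675 (adjusted p = 0.124, and 0.00166 with the block), and Fn1, by 0.35 (0.191 and 0.0313). Monocyte sums were 9.22 to 9.43 and 9.16 to 9.90. Of 7 stromal and endothelial markers 1 rose, with sums of 9.06 to 9.72 and 9.28 to 9.89. Lymphocyte markers summed to 4.48 to 4.56 and 4.50 to 4.53, erythroid markers to 4.04 to 4.38 and 4.05 to 4.37 (Hbb-bs and Car1 listed at 0), and dendritic cell markers to 5.20 to 5.58 and 5.14 to 5.64. Of 5 mast cell markers 4 were listed at 0 and Ms4a2 was near -1.29. The part of these cells in the differences of the replication genes was not tested.

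Some of the 40 genes share exonic sequence with a neighbour. In GENCODE M21, 15 of them overlap exons of a gene on the opposite strand, and Mcm7 also holds Mir25 and Mir93 on its own strand. The library kit keeps strand, but whether counting used strand is not stated by the labels or notes at hand. The opposite-strand overlap was 4648 bases for Chaf1a (with Ubxn6), 2758 for Gins2 (with Gse1), 1909 for Fen1 (with Gm10143), 609 for Ccne2 (with Ints8) and 86 for E2f7 (with 1700020G17Rik), and those values are less certain. Cdt1, Mcm6, Pcna and Rpa2 had no such overlap.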

How the data were processed

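The labels' protocols give a stranded mRNA kit, 300 ng of total RNA per library and paired-end reads of 101 bp. STAR, Salmon and DESeq2 are named in the submitters' processing notes beside Picard 2.23.8, SAMtools 1.7 and FastQC 0.11.9, with the builds mm10 and GRCm38. Roles and settings of these tools were not given. The deposited values are rlog values on a log2 scale for 41444 genes, of which 20992 had no variation between libraries. Genes with a mean of at least 4 entered a two-sided limma test (version 3.58.1, R 4.3.3) on treatment only, with eBayes and a variance trend. Deviations from the group means correlated between same-numbered libraries across genes (0.637, 0.671, 0.753 and 0.587), and the replicate number was also fitted as a block. Different numbers of 1 pair correlated as much (vehicle 1 with SLIT2 2 at 0.609, 2 with 1 at 0.722, 3 with 4 at 0.679, 4 with 3 at 0.601), so the tie is to the pair of replicates and not to the number; the pair was fitted as a block too. The labels do not say what a number marks. The fits were checked on simulated data, with independent noise for each library drawn from the spread of duplicates. There the test without a block recovered 14% of changes of 0.25 and 46% of changes of 0.5. With the replicate block 46% and 88% were recovered. Such data cannot show how the tests behave if duplicates are not independent.

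Members, lists, tests and alternatives were chosen with earlier results of these data known. Values per library were to be given for called members, up to 2 a step, or for the member with the smallest p; Mcm2, Lig1, Rrm2, E2f8, Ccne1, Ccne2 and the other members with such values were added after their values were seen. Of the pathway, mitosis and D-type cyclin lists, genes that passed without a block, and those named beside them, were named by their results. Markers that passed were not all named. Coordinates and overlaps came from GENCODE M21 and promoters from RefSeq, both on GRCm38. Motif letters, including CCAAT and GGGCGG, were searched in 32851 windows; CCAAT was found for 21 of 35 members and 43.1% of tested genes, and GGGCGG for 27 and 69.0%. Figures were drawn with matplotlib 3.10.9.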

Additional observations from a re-analysis of the deposited data

Results flagged for a closer look

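The fall of Mcm6 was larger in replicates 1 and 2 than in replicates 3 and 4, by 0.395 on the log2 scale, and this difference passed limma's interaction test over all genes (adjusted p = 0.0203). That test measures only the spread of duplicates, and the pairs were recognised from these data. In 2 of the 80 groups of 4 libraries checked over the 40 genes, 1 library lay far from the other 3. Rfc3 was at 9.10 in vehicle replicate 4, where the gap to the nearest library took 0.853 of the group's range. Pold1 was at 9.06 in vehicle replicate 3, with 0.879 of the range. Chance alone marks about 1 group in 20 by this rule.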

How the results depend on the processing

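Over all genes, 1581 passed the test as reported, 3912 with the replicate block, 4652 with the replicate pairs as a block, 688 with averaged duplicates, 3962 in replicates 1 and 2 alone and 2880 in replicates 3 and 4 alone, and between 1021 (without SLIT2 replicate 2) and 1254 with 1 library left out. Of the 40 members, 5 passed as reported, 20 with the replicate block, 25 with the replicate pairs as a block, 1 with averaged duplicates, 21 and 8 within the pairs and 3 with no filter on the mean, and between 3 and 5 with 1 library left out. Cdc6, Mcm3, Mcm5 and Gins2 passed with the replicate pairs as a block (limma adjusted p = 0.0303, 0.0257, 0.0218 and 0.0271) but not with the replicate block. The count was 3 without vehicle replicate 1 or 2 or SLIT2 replicate 1, 2 or 3. No member was called higher under any of these alternatives, and the count was 4 with a mean of at least 6 (where E2f7 was not tested) and 4 or 5 without a variance trend, with quantile normalization and with median centring. Cdt1, Mcm6 and E2f7 passed with each library left out and lost their calls with averaged duplicates (adjusted p = 0.0688, 0.0935 and 0.0749). Pcna also lost its call with no filter on the mean (0.0607), without a variance trend (0.0518), with quantile normalization (0.0734) and with median centring (0.0557). Rpa2 lost it with no filter (0.0642), and Pcna and Rpa2 lost it with averaged duplicates (0.0824 and 0.133). Mcm2 gained one with median centring (0.0471), and Prim1 without a variance trend (0.0497). No called difference changed sign. Among members not called, signs changed within the pairs for Orc6 (0.005), Mcm4 (0.055) and Pold1 (0.015) in replicates 3 and 4, and for Gins1 (-0.135), Rfc3 (-0.005), Fen1 (-0.06) and E2f8 (-0.055) in replicates 1 and 2, and with quantile normalization for Fen1 (-0.0062). With 1 library left out the signs differed between libraries for Mcm4 (-0.1125 to 0.0342), Gins1 (-0.0633 to 0.12), Rfc3 (-0.0342 to 0.1325), Pold1 (-0.28 to 0.0133), Fen1 (-0.0158 to 0.0608), E2f8 (-0.0958 to 0.2508) and Ccne1 (-0.1175 to 0.0342). The cause of these changes was not tested, except that averaging leaves 4 values. Should each replicate pair come from 1 culture or animal, a group holds 2 independent units, and the fits within a pair and of the interaction measure only the spread of duplicates. Depth is unknown, so counting error cannot be given.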
